A study of Saccharomyces cerevisiae with 17 samples.

Results

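The brewery fermentation of the lager yeast strain CB11 was sampled at 60 h and at 8 h, and the difference between these times is described here for every Saccharomyces cerevisiae gene on the array. The comparison takes 6 of the 17 arrays of the series, 3 from fermentation 60 h (A, B and C) and 3 from fermentation 8 h (A, B and C), chosen by their labelled stage and time. Both groups came from a single vessel of 3275 hL with a conical base, filled in stages with wort made from 85% malt and 15% sugar adjunct and brought to 25 mg per L of dissolved oxygen on its way into the vessel. The yeast had served in 4 fermentations before this one, and the 8 h samples were drawn 5 h after the last oxygenated wort went in. The oxygen and sugar of the wort at each time are not given in the labels, nor whether the A, B and C samples were drawn, extracted or only hybridised separately. The 60 h and 8 h arrays show the spread between samples of 1 vessel, not between fermentations. The main test pools the spread within all 6 groups of the series, propagation in a vessel of 140 hL included. The other 11 arrays, 2 from fermentation at 30 h and 9 from the oxygenated propagation of the same strain at 0 h, 8 h and 30 h, enter only the estimate of that spread and 1 paragraph on the 30 h arrays. The titles of the 8 h and 30 h fermentation arrays end in a mark that the 60 h titles lack; its meaning is not given, and a batch behind it cannot be told apart from the difference between 60 h and 8 h.

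In a brewery fermentation the oxygen dissolved in the wort is used up early, mostly for sterols and unsaturated fatty acids. Sugars are then fermented to ethanol and carbon dioxide, first glucose and then maltose, while nitrogen sources run down and growth comes to a stop. In budding yeast the genes for ribosomes are transcribed strongly in growing cells and weakly in starved or stressed ones, and many stress and respiratory genes follow the opposite course. Oxidative stress genes, which the series title names as its subject, encode superoxide dismutases, catalases, peroxidases and the thioredoxin and glutathione systems.

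Values are log2 levels after robust multi-array averaging (RMA), as deposited, so that a difference of 1 is 2-fold. A level is comparable between arrays for 1 gene, not between genes. Of 5449 tested genes, 864 (15.9%) differed between 60 h and 8 h at an adjusted p under 0.05 in limma with Benjamini-Hochberg adjustment over all genes. Of these, 502 (9.21%) were higher and 362 (6.64%) were lower at 60 h, and 594 of them changed at least 2-fold. At least 4-fold changes were seen in 41 genes that rose and 50 that fell. In 857 of the 864 the 60 h arrays did not overlap the 8 h arrays, which held for 45.8% of all tested genes (26.0% with 60 h higher and 19.8% with 60 h lower).

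The share of higher genes depended on the centring. The median difference of all genes was 0.08 as deposited and -0.02 when each array was recentred on its median, so recentring lowered every difference by the same amount. Higher genes made up 58.1% of the calls as deposited, 45.1% after recentring (386 higher and 470 lower) and 48.6% after quantile normalization (355 higher and 375 lower).

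The A arrays of the 2 times deviated together from their group means (correlation 0.777). The letters B and C were not told apart in this way: 60 h C correlated at 0.701 with 8 h C and at 0.694 with 8 h B. With the letter as a block, fitted on the 6 arrays of 60 h and 8 h alone, 2977 genes (54.6%) were called, 1747 higher (32.1%) and 1230 lower (22.6%). These 2977 included all 864 in the same direction. The fit differs from the main one in its arrays as well as in the block. The same 6 arrays without a block gave 1609 calls, and the block on all 17 arrays gave 1041. Counts with this block are given beside those without it, and a count over a gene list is to be read against these shares of all genes, which are 9.21% higher and 6.64% lower without the block. A gene said below not to pass is one that did not pass without the block, and its adjusted p with the block is given where it passed there. The count of calls also depended on single arrays: it was 472 without 60 h B, 431 without 8 h B and 435 without 8 h C, against 625 to 727 without any other array. The 381 genes called in each of these 6 fits (189 higher and 192 lower) are called held below.

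**Figure D1:**
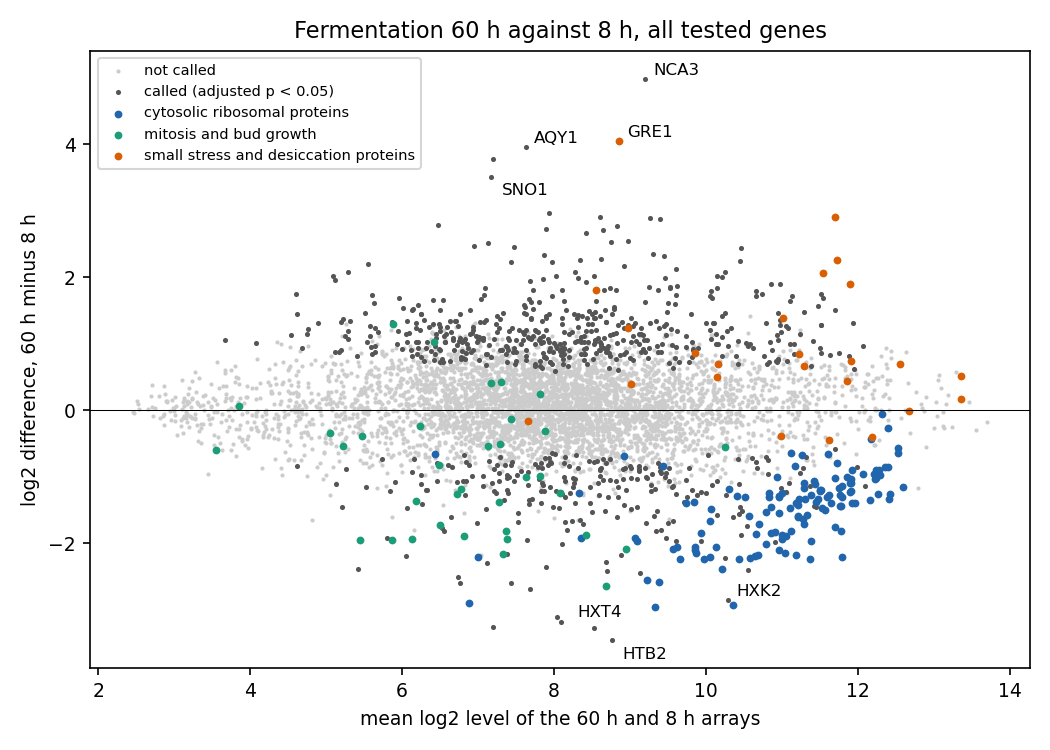
Log2 difference, 60 h minus 8 h, against the mean log2 level of the 6 arrays, 1 point per tested gene. Grey points were not called and dark points were called at an adjusted p under 0.05; cytosolic ribosomal proteins (blue) lie below 0, mitosis and bud growth genes (green) mostly below 0, and small stress proteins (orange) mostly above 0, with NCA3 at 4.98 and HTB2 at -3.45 as the extremes.

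Both A arrays had a weak 5′ signal. The gap between 3′ and 5′ control probe sets, which widens with degraded RNA or short cDNA, was 3.44, 1.65 and 1.04 on the log2 scale on 60 h A, B and C, against 3.10, 1.23 and 1.09 on 8 h A, B and C. The gap was widest on the A array of each group, and 1357 genes were called with it as a covariate. The 8 h B and C arrays were nearly alike over all genes (correlation 0.998), and with their average as 1 sample 440 genes were called. Probe sets for genes of another species, read here as background, gave 0 calls among 1746 in limma, with 96 at an unadjusted p under 0.05. The hybridization control probe sets had mean log2 levels of 10.32, 9.89 and 10.04 on 60 h A, B and C. On 8 h A, B and C these means were 9.92, 9.17 and 8.71, so the arrays also differed in a technical measure. Its part in the differences was not tested.

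The largest rise was in NCA3, a SUN family gene needed for mitochondrial ATP synthase subunit expression, at 10.64, 12.06 and 12.37 on the 60 h arrays against 6.06, 7.04 and 7.04 on the 8 h arrays (difference 4.98 ± 0.78 SE, limma adjusted p = 0.000424). Its lowest 60 h array lay far above its highest 8 h array. The largest rises and falls were chosen among calls whose groups did not overlap, so that lack of overlap was set by the choice. GRE1, a hydrophilin gene induced by osmotic stress and drying, had 10.61, 11.03 and 11.00 at 60 h and 6.96, 6.77 and 6.76 at 8 h (4.05 ± 0.45, adjusted p = 2.75e-05). AQY1, which encodes a plasma membrane water channel, had 8.27, 9.87 and 10.70 at 60 h and 5.60, 5.74 and 5.62 at 8 h (3.96 ± 0.50, adjusted p = 7.14e-05). The 60 h arrays spread over more than 2 log2 units for AQY1, with 60 h A lowest, and all lay above the 8 h arrays. SNO1, for pyridoxine synthesis, had 9.20, 8.86 and 8.72 at 60 h and 5.84, 5.17 and 5.25 at 8 h (3.51 ± 0.27). STR3, a cystathionine beta-lyase that makes homocysteine, had 9.29, 9.59 and 9.34 at 60 h and 6.37, 6.44 and 6.54 at 8 h (2.96 ± 0.22). For SNO1 and STR3 the adjusted p was 8.27e-07, and the arrays of each group lay close together.

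The next in size were the desiccation gene SIP18 and the hexose transporter gene HXT5, both at 2.91, followed by PAI3 at 2.89, INO1 at 2.87, CSM4 at 2.79, YIG1 at 2.77 and THI13 at 2.54. PAI3 encodes an inhibitor of the vacuolar proteinase A, INO1 the enzyme that makes inositol phosphate from a glucose phosphate, and CSM4 a protein of meiotic chromosome movement; 1 of the 3 8 h values of CSM4 lay below the 95th percentile of the background. THI13 is read by a probe set that it shares with near-identical copies, so its value cannot be given to 1 gene. All 12 of these rises were held.

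The largest fall was in HTB2, for histone H2B, at 7.50, 6.89 and 6.71 at 60 h against 10.33, 10.44 and 10.69 at 8 h (-3.45 ± 0.33, adjusted p = 8.31e-06). Its paralogue HTB1 did not pass the test (-0.52, adjusted p = 0.207; 0.00753 and lower with the block). HXT4, a high-affinity glucose transporter gene, had 7.01, 6.83 and 6.84 at 60 h and 9.70, 10.40 and 10.39 at 8 h (-3.27 ± 0.56, adjusted p = 0.000878). SUR7, for a plasma membrane protein of eisosomes, had 5.90, 6.73 and 6.88 at 60 h and 8.78, 10.10 and 10.21 at 8 h (-3.19 ± 0.42, adjusted p = 0.000106). In HXT4 and SUR7 the 8 h A array was the lowest of its group and still above all 60 h arrays. HXK2, the main hexokinase of cells growing on glucose, had 8.22, 9.16 and 9.24 at 60 h and 11.37, 11.90 and 11.90 at 8 h (-2.85 ± 0.49, adjusted p = 0.000897).

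AIM20 (-3.26), the mannoprotein gene SRL1 (-3.11), the ribosomal genes RPL31B (-2.95), RPP2A (-2.93) and RPL22B (-2.90), the fatty acid elongase gene ELO3 (-2.68), the cell separation gene EGT2 (-2.64) and MMR1 (-2.60), which carries mitochondria into the bud, completed the 12 largest falls. All 12 were held.

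**Figure D2:**
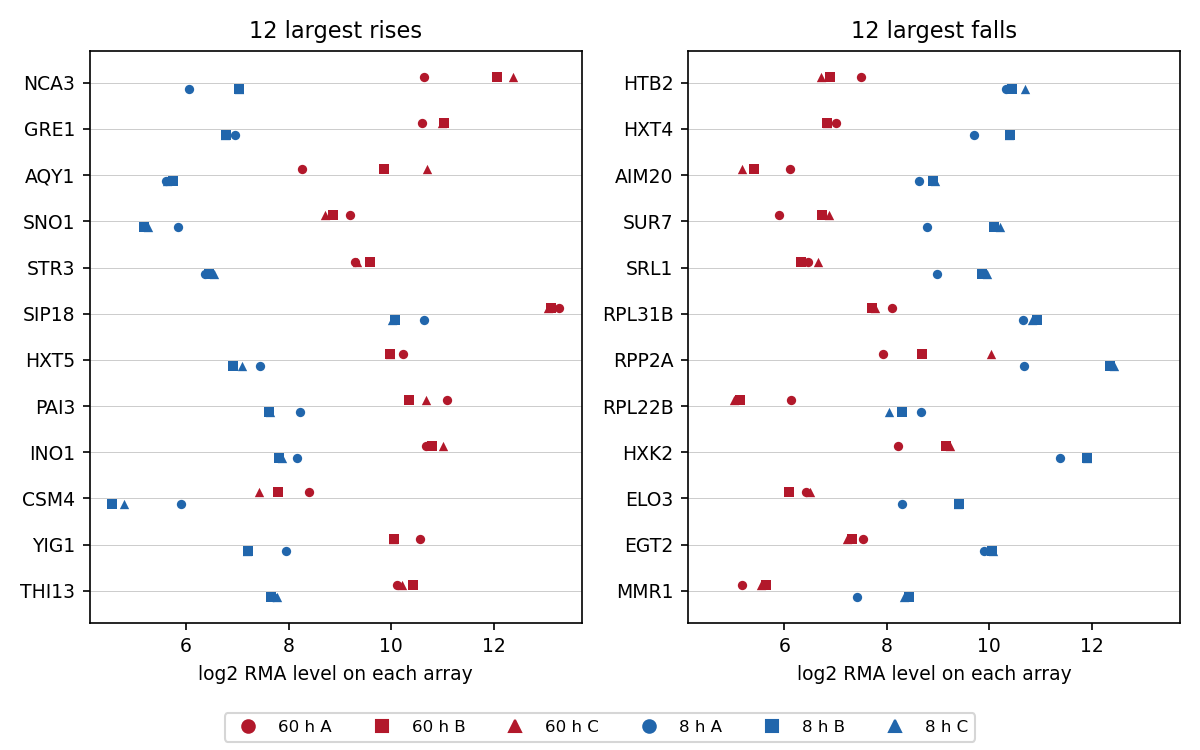
Log2 RMA level of the 12 largest rises (left panel) and falls (right panel) on each of the 6 arrays, red for 60 h and blue for 8 h, with a circle, square and triangle for A, B and C. The genes were chosen among calls whose groups do not overlap, so the gap between the groups follows from the choice. The 60 h arrays spread most in AQY1 (8.27 to 10.70) and RPP2A (7.93 to 10.04).

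Cytosolic ribosomal protein genes, whose products build the ribosome, fell as a body. Of 127 tested, 111 fell and 0 rose, against 6.64% of all genes that fell. All 127 differences were below 0, from -2.95 to -0.06, with a median of -1.38 beside 0.08 for all genes. Their mean log2 level was 10.26 ± 0.12 at 60 h and 11.74 ± 0.03 at 8 h (SD, n = 3 arrays), with 10.39, 10.24 and 10.15 on 60 h A, B and C and 11.70, 11.76 and 11.75 on 8 h A, B and C. With the block 125 fell, and leaving out 1 array at a time 89 to 103 fell. The list is large enough to weigh on the counts, since it holds 111 of the 362 genes that fell.

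Both subunits took part. Among large subunit genes 63 of 70 fell with a median of -1.46, among small subunit genes 43 of 52 with a median of -1.28, and among stalk protein genes 5 of 5. RPL31B had 8.11, 7.71 and 7.76 at 60 h and 10.66, 10.94 and 10.84 at 8 h. RPP2A, for an acidic stalk protein, had 7.93, 8.69 and 10.04 at 60 h and 10.68, 12.35 and 12.43 at 8 h, with the widest spread of the named ribosomal genes. RPS26B had 8.45, 7.91 and 7.49 at 60 h and 10.66, 10.43 and 10.41 at 8 h (-2.55), and RPS7B fell by 2.58.

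Most yeast ribosomal proteins are made from a pair of paralogues, and 50 pairs had both copies tested. Without the block both copies were called lower in 38 pairs, 1 copy in 11, and neither in RPS28. RPS28A (-0.65) and RPS28B (-0.84) passed only with the block (adjusted p = 0.011 and 0.000619). The copies differed in size of change by more than 1 log2 unit in 6 pairs. RPL31B changed by -2.95 and RPL31A by -1.30, RPL40B by -2.38 and RPL40A by -0.64, and RPS26B by -2.55 and RPS26A by -1.40. In the other direction RPP2A changed by -2.93 and RPP2B by -0.90, RPL36A by -2.05 and RPL36B by -0.85, and RPL15A by -1.86 and RPL15B by -0.69. RPL40A and RPL15B passed only with the block (adjusted p = 0.00333 and 0.00124), and the difference between copies was not tested. Of the 127 genes, 26 are read by probe sets shared with another gene, so that a copy's own change is uncertain there.

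The 16 that did not pass lay between -2.01 and -0.06, and all of them but RPS27B (-0.26) and RPS30A were called lower with the block. RPS8B had 8.63, 10.12 and 10.59 at 60 h and 10.67, 12.33 and 12.37 at 8 h (-2.01, adjusted p = 0.083), with both A arrays low, and was called lower with the block (adjusted p = 1.49e-05). RPS30A had 12.58, 12.19 and 12.10 at 60 h and 12.59, 12.20 and 12.25 at 8 h (-0.06, adjusted p = 0.913), and its groups overlapped.

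Other parts of the translation machinery had fewer calls. Of 37 translation factor and aminoacyl-tRNA synthetase genes 5 fell and 0 rose, with a median of -0.48 (22 lower and 1 higher with the block). The elongation factor 1B gene TEF4 had 9.35, 9.71 and 10.10 at 60 h and 10.83, 11.27 and 11.42 at 8 h (-1.45, adjusted p = 0.00842), and it alone was held. Without 60 h A 2 of the 5 were called, and without any other array 1. Of 66 mitochondrial ribosomal protein genes 1 fell, MRPL17 (-0.78, adjusted p = 0.0432, a call lost when any one array was left out), with a median of -0.14 (5 higher and 16 lower with the block).

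Ribosome biogenesis and RNA polymerase I genes, which assemble ribosomes and transcribe their RNA, had no called fall. Of 98 genes 8 rose and 0 fell, near the 9.21% of all genes that rose, with a median of 0.36 (49 higher and 12 lower with the block). None was held: 0 rose without 60 h A, 8 h B or 8 h C, 1 without 60 h C and 2 without 60 h B. The largest of the 8 was RRP8, for a methyltransferase of ribosomal RNA, at 8.71, 8.24 and 8.11 at 60 h and 7.35, 7.01 and 7.09 at 8 h (1.20, adjusted p = 0.0229).

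**Figure D3:**
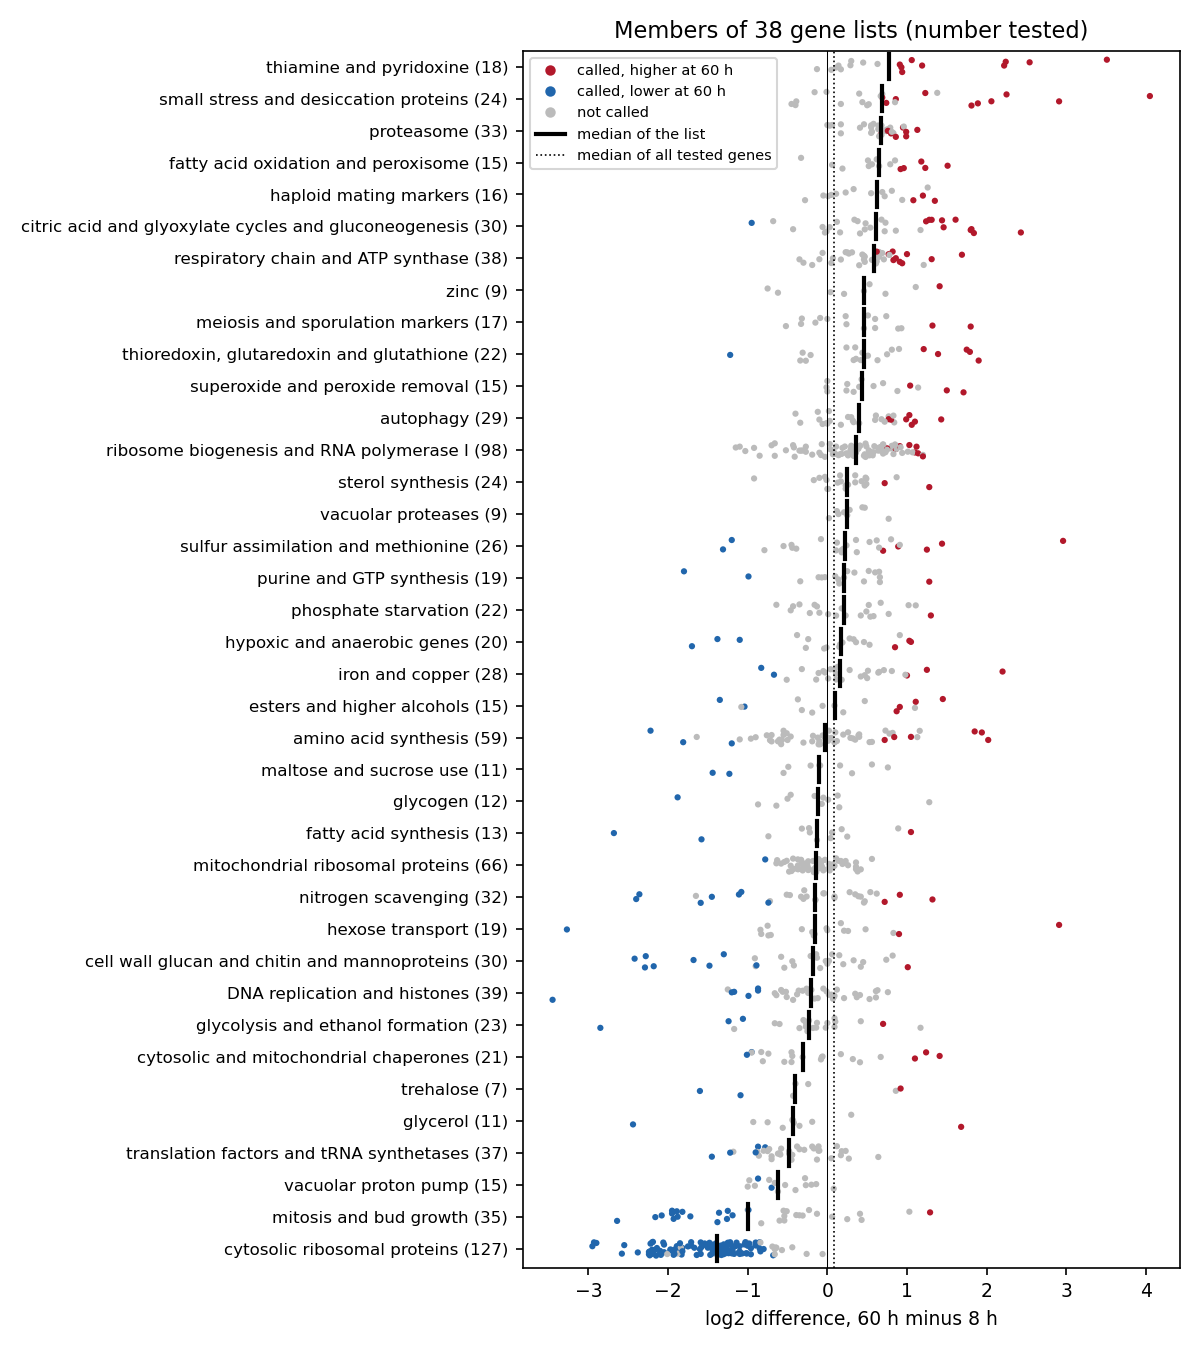
Log2 difference, 60 h minus 8 h, for each tested member of 38 gene lists, ordered by the list's median (black bar), with the number tested in brackets. Red and blue points were called higher and lower at 60 h, grey points were not called, and the dotted line is the median of all tested genes, 0.08; the cytosolic ribosomal protein genes have the lowest median, -1.38, and the thiamine and pyridoxine genes the highest, 0.77.

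Genes of late mitosis and of daughter cell separation were lower at 60 h. Of 35 mitosis and bud growth genes 17 fell and 1 rose, against 6.64% of all genes that fell, with a median of -0.99, and 14 of the 17 were held. With the block 26 were lower and 4 higher, against 22.6% and 32.1% of all genes. Their mean level was 6.39 ± 0.12 at 60 h and 7.31 ± 0.05 at 8 h (SD, n = 3). The cell separation gene EGT2 had 7.54, 7.33 and 7.22 at 60 h and 9.89, 10.05 and 10.08 at 8 h (-2.64, adjusted p = 5e-05). CDC5, the polo kinase of mitotic exit, had 6.67, 6.0 and 6.08 at 60 h and 8.49, 8.39 and 8.36 at 8 h (-2.16, adjusted p = 2.68e-05). CLB2, for the main mitotic cyclin, had 4.31, 4.66 and 4.44 at 60 h and 6.24, 6.51 and 6.52 at 8 h (-1.95, adjusted p = 0.00031), and 2 of its 3 60 h values lay below the background, whose 95th percentile was 4.52 to 4.73 on these arrays. With those values raised to the percentile CLB2 was at least 3.6-fold lower at 60 h.

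CLB1, for another mitotic cyclin, fell by 1.95. The transcription factor gene SWI5, whose targets act as mitosis ends, had 5.68, 4.79 and 5.02 at 60 h and 7.25, 7.12 and 6.92 at 8 h (-1.93). Among the genes of septum dissolution the chitinase gene CTS1 (-1.88), the glucanase gene SCW11 (-1.82) and DSE2 (-1.94) fell, and SUN4 (-1.89) and CIS3 (-2.08) of the cell wall fell too. SIC1, which inhibits the mitotic kinase, fell by 0.99. FAR1, for the inhibitor that arrests cells in G1 on mating pheromone, was the gene that rose, with 6.40, 6.53 and 6.67 at 60 h and 5.35, 5.08 and 5.29 at 8 h (1.29, adjusted p = 0.00151). The G1 and S phase cyclins did not pass the test: CLN1 had a difference of -0.83, CLN2 of -0.51 and CLB5 of 0.41. With the block CLN1 (adjusted p = 0.00063) and CLN2 (0.00734) were called lower and CLB5 (0.0456) higher. Whether the G1 and mitotic genes differ in their response was not tested.

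Of 39 DNA replication and histone genes 6 fell and 0 rose (15.4% called, against 15.9% of all genes), with a median of -0.20 (16 lower and 7 higher with the block). HTB2 and RFC5 (-1.20), for a subunit of the clamp loader, were held. The count was 4 without 60 h B and 2 without 60 h C, 8 h B or 8 h C. The histone H2A gene HTA1 had 10.53, 10.34 and 10.34 at 60 h and 11.27, 11.68 and 11.78 at 8 h (-1.17, adjusted p = 0.0175), a call lost without 60 h B, 60 h C, 8 h B or 8 h C.

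Cell wall genes changed in part. Of 30 genes for glucan, chitin and mannoproteins 8 fell and 1 rose, with a median of -0.17 (14 lower and 6 higher with the block), and 5 of the falls were held. CHS1, for the chitin synthase that repairs the wall at separation, had 7.81, 7.27 and 7.36 at 60 h and 10.11, 9.85 and 9.76 at 8 h (-2.42, adjusted p = 6.34e-05). CHS2, for the chitin synthase of the primary septum, had 5.97, 5.91 and 6.03 at 60 h and 7.57, 8.55 and 8.66 at 8 h (-2.29, adjusted p = 5e-05). The glucanase-like gene SCW10 (-2.28), GAS3 (-1.68) and CRH1 (-1.48) were the other held falls. The count of falls was 5 without 60 h B, 8 h B or 8 h C. The flocculin gene FLO11, for a surface adhesin, had 9.15, 9.42 and 9.43 at 60 h and 8.20, 8.39 and 8.38 at 8 h (1.01, adjusted p = 0.0111), a call lost without 60 h B.

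**Figure D4:**
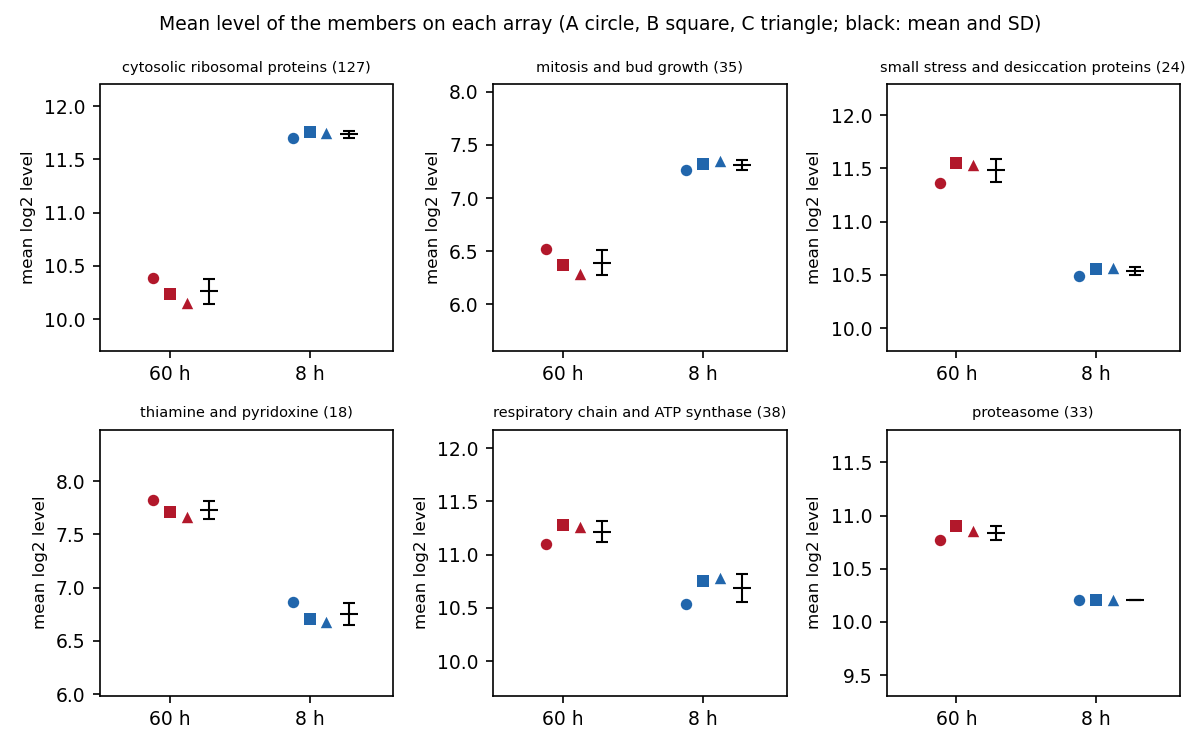
Mean log2 level of the members of 6 gene lists on each array, 60 h (red) left of 8 h (blue), with a circle, square and triangle for A, B and C and black bars for the mean and SD of the 3 arrays. All panels span the same range of log2 units. Ribosomal protein genes averaged 10.26 at 60 h and 11.74 at 8 h, and small stress genes 11.48 at 60 h and 10.53 at 8 h, with no overlap of the groups in any panel. That lack of overlap is not particular to these lists. It was also seen in lists with 1 call, such as glycogen and phosphate starvation, and in 45.8% of all tested genes.

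Small stress and desiccation genes, whose products protect dried or starved cells, rose in part. Of 24 genes 10 rose and 0 fell, with a median of 0.69 (18 higher and 3 lower with the block), and their mean level was 11.48 ± 0.10 at 60 h and 10.53 ± 0.04 at 8 h (SD, n = 3). Without 60 h B 6 of the 10 were called, and 6 of the 10 were held. SIP18, a hydrophilin gene, had 13.28, 13.12 and 13.07 at 60 h and 10.65, 10.08 and 10.02 at 8 h (2.91, adjusted p = 0.00137). DDR2, a multistress gene, had 12.93, 12.86 and 12.76 at 60 h and 10.48, 10.55 and 10.75 at 8 h (2.25, adjusted p = 0.000112). SPG4, needed to survive stationary phase, had 12.97, 12.42 and 12.33 at 60 h and 10.96, 10.35 and 10.22 at 8 h (2.06, adjusted p = 0.00218). The stress-induced wall gene SPI1 rose by 1.89, and MOH1 by 1.23. The small heat shock gene HSP26 had 10.80, 12.12 and 12.21 at 60 h and 9.62, 10.69 and 10.69 at 8 h (1.38, adjusted p = 0.289). Both A arrays were low for HSP26, the lowest 60 h value lay just above the highest 8 h value, and with the block it was called higher (adjusted p = 7.25e-05).

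Chaperone and trehalose genes showed no common direction. Of 21 cytosolic and mitochondrial chaperone genes 3 rose and 2 fell, with a median of -0.31 (5 higher and 10 lower with the block), and none of the 5 was held. SSA3, for a stress-induced HSP70, had 10.74, 11.16 and 10.85 at 60 h and 10.01, 9.21 and 9.31 at 8 h (1.41, adjusted p = 0.00821), a call lost without 8 h B. Of 7 trehalose genes 2 fell and 1 rose, with a median of -0.40 (4 lower and 2 higher with the block). TPS3, for a regulatory subunit of trehalose synthesis, had 9.68, 9.49 and 9.48 at 60 h and 11.35, 11.02 and 11.07 at 8 h (-1.60, adjusted p = 0.00156) and was held. Of 12 glycogen genes 1 fell, the glycogen synthase gene GSY1, with 9.24, 9.49 and 9.82 at 60 h and 11.25, 11.49 and 11.44 at 8 h (-1.88, adjusted p = 6.34e-05), while its paralogue GSY2 had a difference of 0.15. The median of the glycogen list was -0.11 (5 lower and 1 higher with the block).

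Of 12 widely studied genes of the oxidative and general stress response 3 rose, 0 fell and 9 did not pass. SOD1, for the copper-zinc superoxide dismutase, had 12.23, 12.57 and 12.55 at 60 h and 10.76, 11.05 and 11.06 at 8 h (1.50 ± 0.36, adjusted p = 0.00952). CTA1, for the peroxisomal catalase, had 10.56, 11.14 and 11.02 at 60 h and 9.17, 9.21 and 9.21 at 8 h (1.71 ± 0.30, adjusted p = 0.000982). YAP1, for the transcription factor that answers peroxide, had 9.91, 10.09 and 10.12 at 60 h and 8.87, 8.92 and 8.92 at 8 h (1.13 ± 0.34, adjusted p = 0.0308). The calls of SOD1 and CTA1 were held, and that of YAP1 was lost when any one of the 6 arrays was left out.

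Among those that did not pass, SOD2, for the mitochondrial manganese enzyme, had 10.25, 11.70 and 12.18 at 60 h and 10.17, 10.89 and 10.94 at 8 h (0.70, adjusted p = 0.374), and its groups overlapped because 60 h A was low. CTT1, for the cytosolic catalase, had 12.57, 12.98 and 13.03 at 60 h and 12.73, 12.97 and 12.91 at 8 h (-0.01, adjusted p = 0.988). HSP104, for a disaggregase, had 10.31, 9.98 and 10.18 at 60 h and 11.17, 11.14 and 10.99 at 8 h (-0.95, adjusted p = 0.0529). The difference was 0.81 for TRX2, 0.58 for TSA1, 0.52 for HSP12, 0.44 for GSH1, -0.21 for GLR1 and -0.34 for TRR1. With the block SOD2 (adjusted p = 0.0181), TRX2 (0.000597), TSA1 (0.00293), HSP12 (0.00487) and GSH1 (0.0122) were called higher and HSP104 (0.000433) lower.

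Over the wider lists, 3 of 15 superoxide and peroxide removal genes rose and 0 fell, with a median of 0.43 (9 higher with the block). The third was the peroxidase gene HYR1 (1.04, adjusted p = 0.0209), a call lost without 60 h A, 60 h B, 8 h B or 8 h C. Of 22 thioredoxin, glutaredoxin and glutathione genes 5 rose and 1 fell, with a median of 0.45 (14 higher and 1 lower with the block). ECM4, a glutathione transferase of the omega class, had 11.82, 11.95 and 11.66 at 60 h and 10.33, 9.72 and 9.70 at 8 h (1.90, adjusted p = 0.00188). TRX3, for the mitochondrial thioredoxin, had 11.58, 11.71 and 11.38 at 60 h and 10.15, 9.59 and 9.55 at 8 h (1.79, adjusted p = 0.000279). The glutathione transferase gene GTT1 rose by 1.75 and the methionine sulfoxide reductase gene MXR1 by 1.21. GRX6, for a glutaredoxin of the secretory pathway, fell by 1.22.

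Genes for using ethanol, acetate and other non-sugar carbon were among those that rose. Of 30 genes of the citric acid and glyoxylate cycles and gluconeogenesis 10 rose and 1 fell, with a median of 0.61 (20 higher and 3 lower with the block), and 7 of the 10 were held. ACS1, for the acetyl-CoA synthetase repressed by glucose, had 11.33, 11.97 and 11.74 at 60 h and 9.21, 9.25 and 9.28 at 8 h (2.43, adjusted p = 5e-05). MLS1, for malate synthase of the glyoxylate cycle, had 11.02, 11.30 and 10.88 at 60 h and 9.62, 9.02 and 9.03 at 8 h (1.84, adjusted p = 0.000703). ADH2, for the alcohol dehydrogenase that oxidises ethanol, had 10.05, 10.35 and 10.44 at 60 h and 8.31, 8.55 and 8.55 at 8 h (1.81, adjusted p = 0.00079). The succinate-fumarate carrier gene SFC1 (1.61), PCK1 (1.46) of gluconeogenesis and the citrate synthase gene CIT3 (1.44) rose as well. The isocitrate lyase gene ICL1 had a difference of 0.47 and the gluconeogenic gene FBP1 of 1.17 (adjusted p = 0.0712), and neither passed without the block; with it both were called higher (adjusted p = 0.0154 for ICL1 and 0.00255 for FBP1). The lactate permease gene JEN1 fell by 0.95, a call lost without 8 h C.

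Of 15 fatty acid oxidation and peroxisome genes 5 rose and 0 fell, with a median of 0.65 (12 higher with the block). The acyl-CoA synthetase gene FAA2 had 7.13, 7.49 and 7.16 at 60 h and 5.93, 5.74 and 5.57 at 8 h (1.51, adjusted p = 0.0026) and was the held one; the count was 2 without 60 h B, 3 without 60 h C and 1 without 8 h B or 8 h C. Of 38 respiratory chain and ATP synthase genes 10 rose and 0 fell, with a median of 0.58 (27 higher with the block). NDE2, for an external NADH dehydrogenase, had 12.45, 12.43 and 12.24 at 60 h and 11.09, 10.48 and 10.49 at 8 h (1.69, adjusted p = 0.0017). ATP17 (1.31) of ATP synthase and COX9 (1.00) of cytochrome oxidase were the other held members. The count was 5 without 60 h A or 8 h A, 4 without 60 h B or 8 h C and 3 without 8 h B.

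Sugar transport and glycolysis genes were called about as often as all genes (15.9%). Of 19 hexose transport genes 2 rose and 1 fell (15.8% called), with a median of -0.16 (4 higher and 6 lower with the block). HXT5, for a transporter of slowly growing cells, had 10.24, 9.98 and 9.97 at 60 h and 7.45, 6.92 and 7.10 at 8 h (2.91, adjusted p = 2.91e-05), and HXT15 (0.90, adjusted p = 0.038, shared probe set) lost its call without 60 h B, 60 h C, 8 h B or 8 h C. For HXT15 2 of the 3 8 h values lay below the background percentile, and with them raised to it the difference was 0.76. The glucose transporter genes HXT1 (-0.71) and HXT3 (-0.74) did not pass, and with the block both were called lower (adjusted p = 0.0122 and 0.000864). Of 23 genes of glycolysis and ethanol formation 3 fell and 1 rose (17.4% called), with a median of -0.23 (7 lower and 3 higher with the block). Beside HXK2, the pyruvate kinase gene PYK2 had 8.79, 9.02 and 9.12 at 60 h and 10.17, 9.97 and 9.97 at 8 h (-1.06, adjusted p = 0.0113) and was held. The other hexose kinase genes, HXK1 (-0.35; adjusted p = 0.0279 and lower with the block) and GLK1 (-0.13), did not pass.

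Of 11 maltose and sucrose genes 2 fell (18.2% called), both held, with a median of -0.10 (4 lower and 2 higher with the block). MAL31, for a maltose permease, had 10.12, 10.90 and 11.06 at 60 h and 11.75, 12.30 and 12.35 at 8 h (-1.44, adjusted p = 0.00362). IMA1, for isomaltase, had 10.62, 10.45 and 10.24 at 60 h and 11.64, 11.73 and 11.62 at 8 h (-1.23, adjusted p = 0.00146). The invertase gene SUC2 had a difference of -0.10. Of 11 glycerol genes 1 rose and 1 fell, with a median of -0.43 (1 higher and 8 lower with the block). The glycerol phosphatase gene GPP1 fell by 2.44, a call lost without 60 h A, 8 h B or 8 h C, and the glycerol kinase gene GUT1 rose by 1.68, a call that only the fit without 60 h A kept among the 6 that left out an array.

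Thiamine and pyridoxine genes, which make the cofactors of these vitamins, had the highest median of the 38 lists in the values as deposited. After quantile normalization it was 0.60, below the small stress and desiccation genes (0.72) and the proteasome genes (0.67). Of the 18 thiamine and pyridoxine genes 9 rose and 0 fell, with a median of 0.77 as deposited (11 higher with the block). Their mean level was 7.73 ± 0.08 at 60 h and 6.75 ± 0.10 at 8 h (SD, n = 3). SNO1 and SNZ1 lie side by side in the genome and encode the subunits of pyridoxal phosphate synthase. SNZ1 had 11.39, 11.70 and 11.61 at 60 h and 9.36, 9.31 and 9.32 at 8 h (2.24, adjusted p = 0.00103), whereas the paralogues SNZ3 (0.30) and SNO3 (0.63; adjusted p = 0.00209 and higher with the block) did not pass. THI73, a permease gene under thiamine control, had 9.54, 9.02 and 8.70 at 60 h and 7.11, 6.74 and 6.75 at 8 h (2.22, adjusted p = 0.000114). The thiamine transporter gene THI7 rose by 1.06. The count was 5 without 60 h B and 7 to 9 without any other array, and THI4 (0.45; adjusted p = 0.0126 and higher with the block), for the thiazole precursor, did not pass.

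Proteasome genes, whose products break down tagged proteins, had small positive differences. Of 33 genes 8 rose and 0 fell, with a median of 0.68 and every difference at 0.00 or above (28 higher with the block). Their mean level was 10.77, 10.90 and 10.85 on 60 h A, B and C and 10.21 on each 8 h array. PRE3, for a catalytic subunit of the core, had 11.45, 11.56 and 11.48 at 60 h and 10.40, 10.35 and 10.36 at 8 h (1.13, adjusted p = 0.0115). PRE3 and RPT1 (0.86), an ATPase of the regulatory particle, were held. The count was 3 without 60 h A, 5 without 8 h A and 2 without 60 h B, 8 h B or 8 h C.

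Of 29 autophagy genes 7 rose and 0 fell, with a median of 0.40 (16 higher with the block). ATG32, for the receptor that sends mitochondria to the vacuole, had 9.09, 8.86 and 8.66 at 60 h and 7.95, 7.76 and 7.82 at 8 h (1.03, adjusted p = 0.00438), and ATG22 (1.06) was held too. The count was 3 without 60 h B, 60 h C, 8 h B or 8 h C. Of 9 vacuolar protease genes none was called by limma, with a median of 0.25 (3 higher with the block). Of 15 vacuolar proton pump genes, which acidify the vacuole, 2 fell, STV1 (-0.87) and VMA5 (-0.70), with a median of -0.62 (10 lower with the block). Neither call was kept when any one array was left out.

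Amino acid synthesis genes were called about as often as all genes. Of 59 genes 6 rose and 3 fell (15.3% called, against 15.9% of all genes), with a median of -0.03 (17 higher and 21 lower with the block). SER3, for the first step of serine synthesis, had 9.51, 9.50 and 9.61 at 60 h and 7.32, 7.67 and 7.58 at 8 h (2.02, adjusted p = 0.000863). GDH3, for a glutamate dehydrogenase of cells off glucose, had 8.00, 8.70 and 9.28 at 60 h and 6.38, 6.98 and 6.79 at 8 h (1.94, adjusted p = 0.000263). The argininosuccinate synthase gene ARG1 rose by 1.85 and the lysine gene LYS9 fell by 1.81, and all 4 were held. The glutamine synthetase gene GLN1 fell by 2.22, a call lost without 8 h B or 8 h C. The count of rises was 3 without 8 h B.

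Of 32 nitrogen scavenging genes 7 fell and 3 rose (31.2% called), with a median of -0.15 (12 lower and 8 higher with the block). PUT1, for proline oxidase, had 8.86, 9.39 and 9.81 at 60 h and 11.81, 11.78 and 11.66 at 8 h (-2.40, adjusted p = 0.00081). DAL7, a malate synthase gene of allantoin use, had 7.01, 6.61 and 6.54 at 60 h and 9.29, 9.13 and 8.82 at 8 h (-2.36, adjusted p = 5.91e-05). OPT2 (-1.45), for a peptide transporter, and UGA3 (1.32), for the activator of GABA use, were held. The falls numbered 4 without 60 h C, 8 h B or 8 h C, and the rises 1 without 60 h B, 8 h B or 8 h C. Of 26 sulfur assimilation and methionine genes 5 rose and 2 fell, with a median of 0.22 (12 higher and 7 lower with the block). STR3 and the S-methylmethionine permease gene MMP1 (1.25) were the held rises, and MET3 (-1.20), for ATP sulfurylase, the held fall, while the fall of CYS3 (-1.31) was lost without 60 h A, 60 h B, 8 h B or 8 h C. The rises numbered 2 without 60 h B or 8 h A and 3 without 60 h C, 8 h B or 8 h C.

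Of 20 hypoxic and anaerobic genes, which answer to low oxygen, 3 rose and 3 fell (30% called), with a median of 0.18 (7 higher and 4 lower with the block). AAC3, for the ADP/ATP carrier of anaerobic cells, had 6.27, 6.05 and 6.09 at 60 h and 7.76, 7.90 and 7.85 at 8 h (-1.70, adjusted p = 0.000494). ANB1, for the anaerobic form of eIF5A, had 9.08, 9.03 and 8.95 at 60 h and 10.46, 10.44 and 10.29 at 8 h (-1.38, adjusted p = 0.00334). Both falls were held. Their aerobic partners had differences of 1.29 for AAC1 (adjusted p = 0.0241, lost without 60 h B, 60 h C or 8 h A) and 0.64 for HYP2 (adjusted p = 0.201; 0.00246 and higher with the block). The rises of NCE103 (1.05), HES1 (1.03) and ROX1 (0.85) were not held, and none of them was called without 8 h B or 8 h C.

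Of 24 sterol synthesis genes 2 rose, ERG3 (1.28) and ERG8 (0.72), with a median of 0.25 (11 higher and 1 lower with the block). None of the 24 was called without 60 h A, 60 h B, 60 h C, 8 h B or 8 h C, and 1 was called without 8 h A. Of 13 fatty acid synthesis genes 2 fell and 1 rose, with a median of -0.13 (4 lower and 2 higher with the block). The elongase genes ELO3, with 6.43, 6.10 and 6.51 at 60 h and 8.29, 9.41 and 9.38 at 8 h, and ELO1 (-1.58) were the held falls.

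The 30 h fermentation arrays, B and C, were placed on a scale from the 8 h to the 60 h mean of each called gene. On 30 h B the 502 genes higher at 60 h stood at a median of 33.2% of the way from their 8 h mean to their 60 h mean, and the 362 lower genes at 51.8%. On 30 h C these medians were 5.76% and 12.7%. Not all of these genes lay between the 2 means. On 30 h C 186 of the higher and 73 of the lower genes lay beyond the 8 h mean, away from 60 h. On 30 h B 90 of the higher and 15 of the lower genes did. The 30 h arrays thus differed from each other, with B further along in both sets. GRE1 had 6.96, 6.77 and 6.76 at 8 h, 9.69 on 30 h B and 7.01 on 30 h C, and 10.61, 11.03 and 11.00 at 60 h. HXT4 had 9.70, 10.40 and 10.39 at 8 h, 6.99 on 30 h B and 9.50 on 30 h C, and 7.01, 6.83 and 6.84 at 60 h. With 2 arrays apart from each other at 30 h, no order of the changes in time is drawn from them.

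**Figure D5:**
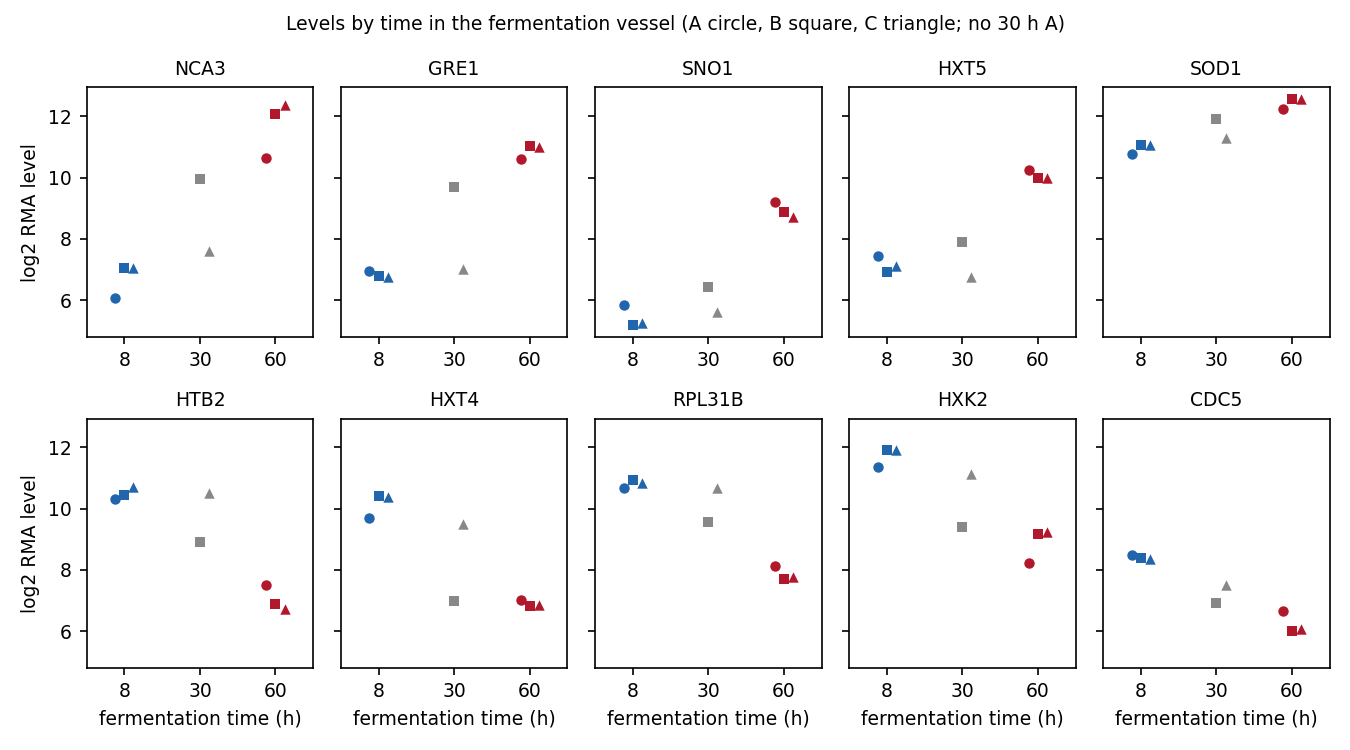
Log2 RMA level of 10 genes against fermentation time (8 h, 30 h and 60 h), 1 point per array, with a circle, square and triangle for A, B and C and no 30 h A array. The 5 upper genes rose and the 5 lower genes fell at 60 h against 8 h, and 30 h B (square) lies nearer the 60 h points than 30 h C (triangle) in each panel.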

How the data were processed

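RNA of the lager yeast strain CB11 was hybridised to 1-colour oligonucleotide arrays (17 arrays, 6 groups by labelled stage and time). The authors deposited log2 values per probe set; these came from RMA per the submitters' processing notes, in a version not given in the sources used here; the method corrects background, quantile normalizes the arrays together and summarises probes, so a shift common to all genes is removed. Scanner files were not used here.

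Probe sets were named through the platform annotation, with symbols updated through RefSeq gene IDs. Of 10928 probe sets, 5498 had 1 S. cerevisiae gene, giving 5449 genes, and 115 genes were read by shared probe sets. For the 47 genes with several probe sets, the probe set with the highest mean level was used. Lager yeast is a hybrid, and the array does not separate the parental copies of a transcript. The number of arrays limits the precision. The background is the 95th percentile of other-species probe sets on each array; for bounds, lower values were raised to it.

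limma 3.58.1 (R 4.3.3) estimated the mean of each of the 6 groups from the 17 arrays together. The contrast 60 h minus 8 h was tested with eBayes, two-sided, with Benjamini-Hochberg adjustment over the 5449 genes and calls at an adjusted p under 0.05. The procedure was also run on simulated data with independent noise on each array. That run lacks the deviations shared between arrays here, so it cannot show how the test behaves with them. No other sample's columns were present. The letters A, B and C come from the labels. Deviations from the group means correlated between same-letter arrays of 60 h and 8 h at 0.777 (A), 0.337 (B) and 0.701 (C). The letters were taken as pairs for the block, which was fitted on the 6 arrays of 60 h and 8 h alone. However, 60 h B and 8 h C correlated at 0.36 and 60 h C and 8 h B at 0.694, so only A is set apart.

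Gene lists (38) are described by counts and medians with no set test. The members and lists were chosen with earlier results of these data known. The text names, among called genes with a standard name whose groups did not overlap, the 12 that rose most and the 12 that fell most. It then names 12 stress genes and called members of each list, which are not always the largest. CRC1 (1.80), CWP1 (-2.18), GRX4 (1.39), MUP1 (1.44) and CAR1 (-1.59) are not described, while smaller changes in their lists are. The same holds for ATG1 (1.43), PFK1 (-1.24), PDR12 (-1.35), HEM13 (-1.10), PET18 (1.19) and RPN12 (0.99), among others. None of the calls just listed was held, so the members described above can look more stable than their lists. Partner genes and further members were added after their values were seen. Of the list members, 24 had no probe set of their own and are not analysed here. No promoter sequences were printed, as no sequence table was used here.

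Alternatives changed the filter, centring, normalization, arrays in the fit, block, weights, variance model, threshold and RNA quality term, and left out each array in turn.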

Additional observations from a re-analysis of the deposited data

How the results depend on the processing

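The filter on dim genes (725 called), recentring (856), quantile normalization (730), probe sets tested separately (888), the fit without the propagation 8 h and 30 h arrays (780), the replicate block on all 17 arrays (1041) and eBayes with trend and robust settings (851) kept the count within 1.5 times of 864. The count moved further in other fits. It was 1609 (943 higher, 666 lower) with the 6 arrays alone, 1830 (1093 higher, 737 lower) with the 8 fermentation arrays, 2977 (1747 higher, 1230 lower) with the replicate block on the 6 arrays, 3534 (2071 higher, 1463 lower) with array weights and 1357 (801 higher, 556 lower) with the 3′ minus 5′ signal as covariate. It was 40 (19 higher, 21 lower) against a 2-fold change, 451 (247 higher, 204 lower) without both A arrays and 440 (224 higher, 216 lower) with 8 h B and C averaged. Leaving out 1 array gave 431 to 727 called, 221 to 442 higher and 208 to 299 lower; beyond 1.5 times the counts were 472 without 60 h B, 431 without 8 h B and 435 without 8 h C. The cause of these shifts in the count was not tested. Of 193 genes listed for naming (largest changes, stress genes, called list members and partner genes) none reversed in any fit. Not all of them are described above, and some genes described above are not among them. Most were chosen as called in these data, which favours a lack of reversals. Calls were lost for 60 without both A arrays, 60 with 8 h B and C averaged, 63 without 8 h B and 132 against a 2-fold change. At most 1 gained a call in these fits. The replicate block on the 6 arrays added calls and ended none among the 864.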

Other observations

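Of 17 meiosis and sporulation markers 2 rose and 0 fell (11.8% called, against 15.9% of all genes), with a median of 0.46 (9 higher and 2 lower with the block). The meiotic recombinase gene DMC1 had 9.02, 8.53 and 8.32 at 60 h and 7.20, 6.63 and 6.63 at 8 h (1.80, limma adjusted p = 0.0017). SPO11, which cuts DNA in meiosis, was called higher, a call lost without 8 h C. SPO11 had 6.27, 5.78 and 5.52 at 60 h and 5.04, 4.41 and 4.17 at 8 h, with 2 of the 8 h values below the 95th percentile of the background, and the difference was 1.32 as deposited and 1.04 with those values raised to it. The mean log2 level of this list was 5.23 to 5.73 at 60 h and 4.87 to 5.29 at 8 h, with 3 to 7 members below background at 60 h and 4 to 8 at 8 h. Of 16 haploid mating markers 3 rose and 0 fell (18.8% called), with a median of 0.62 (9 higher with the block) and a mean level of 5.97 to 6.35 at 60 h and 5.43 to 5.85 at 8 h. Of these markers 2 lay below background on each 60 h array, and 2 to 3 on the 8 h arrays. FUS1, for cell fusion, had 6.99, 6.72 and 6.78 at 60 h and 5.86, 5.50 and 5.53 at 8 h (1.20, adjusted p = 0.00764). The calls of AGA2 (1.35) and STE4 (1.08) were lost without 60 h A, 60 h B, 8 h B or 8 h C. The part of such cells in the other results was not tested.

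Of 28 iron and copper genes 3 rose and 2 fell (17.9% called), with a median of 0.16 (12 higher and 3 lower with the block). TIS11, which breaks down messages of iron-using proteins, had 5.88, 7.08 and 6.98 at 60 h and 4.40, 4.35 and 4.60 at 8 h (adjusted p = 0.000456). All 3 of its 8 h values lay below the 95th percentile of the background, and against that percentile TIS11 was at least 3.88-fold higher at 60 h. The rises numbered 1 without 8 h B, and neither fall was held. Of 9 zinc genes 1 rose (11.1% called), the zinc transporter gene ZRT2 (1.41, held), with a list median of 0.46 (5 higher and 2 lower with the block). Of 22 phosphate genes 1 rose (4.55% called), PHM8 (1.30, called in the fit without 60 h C alone of the 6), with a list median of 0.21 (10 higher and 3 lower with the block). Of 19 purine and GTP synthesis genes 2 fell and 1 rose (15.8% called), with a median of 0.21 (8 higher and 3 lower with the block), and the IMP dehydrogenase gene IMD4 (-1.80) was held. Of 15 ester and higher alcohol genes 4 rose and 2 fell (40% called, against 15.9% of all genes), with a median of 0.09 that turned to -0.02 after recentring (6 higher and 4 lower with the block). OYE3 (1.45), an NADPH dehydrogenase gene, and the aromatic transaminase gene ARO9 (-1.04) were held, and the other 4 calls were not.

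Among 71 called genes without a standard name, 50 rose and 21 fell. YOL131W had 9.30, 9.23 and 8.72 at 60 h and 5.68, 5.10 and 5.14 at 8 h (3.78), larger than all but 3 of the named rises. YNL058C had 6.51, 6.02 and 5.91 at 60 h and 8.66, 8.82 and 8.74 at 8 h (-2.60). The 4365 genes in no list held 382 of the rises and 175 of the falls, with a median difference of 0.09.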
